A study of Mus musculus with 6 samples.

Results

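Nidogen-1, 6 laminin chains and the proteoglycans perlecan and agrin were followed in mouse osteoblastic cells that lack Tmem161a. The genes are Nid1, Lama2, Lama4, Lama5, Lamb1, Lamb2, Lamc1, Hspg2 and Agrn, and they are 9 of the 19571 array rows that carry a gene symbol. They were chosen by symbol with the difference between Tmem161a-KO and WT arrays already known. The members' differences are therefore given as a description with no test. Every gene had 1 row on the array.

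The Tmem161a-KO group consisted of 3 samples of MC3T3-e1 cells, an osteoblastic line from mouse calvaria, in which Tmem161a was disrupted with CRISPR/Cas9. The WT group consisted of 3 samples of the same line left intact. All 6 arrays were Clariom S mouse arrays, on which each gene is read in a single color by several short probes. The KO cells were 1 line obtained by limited dilution, so that a property of this line and the loss of Tmem161a cannot be told apart. Separate cultures are not mentioned in the labels, so p-values reflect no more than the spread among these samples, which may be technical.

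Basement membranes are thin sheets of matrix around vessels, nerves, muscle and fat and beneath epithelia. Laminins, trimers of an alpha, a beta and a gamma chain, polymerize at the cell surface and are held there by integrins and dystroglycan. Nidogens and the heparan sulfate proteoglycans perlecan and agrin tie this polymer to the collagen IV network. In bone, basement membranes are known mainly from blood vessels, nerves and marrow fat, whereas osteoblasts lie on a collagen I matrix.

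The RefSeq promoter table (build GRCm38.p6) held 7 of the 9 members. Lama4 and Lamc1 had no entry. The 250 bases before the start site are shown for Nid1, Lamb2 and Lama2, which are the matched members past the threshold of the fit over all genes, so that the sequence in front of the member with the largest difference can be read beside those of 2 others. They lie at chr13:13437352-13437601 on the plus strand for Nid1, at chr9:108479612-108479861 on the plus strand for Lamb2 and at chr10:27616943-27617192 on the minus strand for Lama2, and each is written along its gene. Capitals mark matches on either strand to the GC box GGGCGG, the CCAAT box CCAAT, the TATA box TATAAA or the AP-1 site TGANTCA.
Nid1: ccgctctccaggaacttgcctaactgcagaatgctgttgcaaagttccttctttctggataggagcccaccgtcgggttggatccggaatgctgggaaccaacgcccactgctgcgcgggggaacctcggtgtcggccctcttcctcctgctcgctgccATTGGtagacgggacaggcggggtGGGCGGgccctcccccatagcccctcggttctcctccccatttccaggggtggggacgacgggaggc
Lamb2: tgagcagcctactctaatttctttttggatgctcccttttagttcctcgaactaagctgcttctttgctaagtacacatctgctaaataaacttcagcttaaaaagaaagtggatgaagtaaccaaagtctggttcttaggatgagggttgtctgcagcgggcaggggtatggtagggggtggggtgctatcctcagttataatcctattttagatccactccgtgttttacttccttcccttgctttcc
Lama2: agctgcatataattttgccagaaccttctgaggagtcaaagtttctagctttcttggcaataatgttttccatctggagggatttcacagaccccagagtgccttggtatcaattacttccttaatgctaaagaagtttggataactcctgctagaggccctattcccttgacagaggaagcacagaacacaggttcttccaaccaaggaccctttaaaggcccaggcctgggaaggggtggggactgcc
The Nid1 window held 1 GC box, 67 to 62 bases before the start, and 1 CCAAT box on the opposite strand, 91 to 87 bases before it. None of these letters was found in the Lamb2 and Lama2 windows. The Nid1 window was 64.4% G and C, against 43.6% for Lamb2, 47.2% for Lama2 and a median of 52.4% over the 32851 promoters of the table. Of the members outside the threshold, Lama5 had 4 GC boxes, Hspg2 had 5, Lamb1 had 2 and a CCAAT box, and the 2 Agrn windows had 12 and 2, some of them overlapping. Over all promoters of this length, 32.7% held a GC box, 33.8% a CCAAT box, 12.4% a TATA box and 6.75% an AP-1 site. These matches are letters in a window and not known binding sites.

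The arrays of each group were alike in brightness. The median intensity was 204 to 208 on Tmem161a-KO arrays and 214 to 215 on WT arrays, whereas the upper quartile was 1439 to 1455 on Tmem161a-KO arrays and 1379 to 1393 on WT arrays. Tmem161a itself had an intensity of 967 ± 32.7 in Tmem161a-KO cells and 1148 ± 84.3 in WT cells (SD, n = 3 each; log2 difference -0.25, SE 0.11, limma adjusted p = 0.192). The KO carries small deletions and where the probes lie was not known here, so this level does not check the labels. Over all rows 1122 genes were higher and 817 lower in Tmem161a-KO cells at a limma adjusted p under 0.05, 57.9% of the calls being higher, and after centering each array on its median 1619 were higher and 614 lower, 72.5% being higher. After quantile normalization 893 were higher and 823 lower, 52.0% being higher. As background the 95th percentile of 1091 olfactory receptor rows was used, an intensity of 100.1. The osteoblast markers Col1a1, Col1a2 and Sparc were far above it in both groups, whereas Alpl and Ibsp were below it in both. Of 9 measured osteoblast markers 1, Sp7, was called higher (log2 difference 2.27), and 3 had an unadjusted p under 0.05. Bglap (-0.30), Bglap2 (-0.26) and Postn (0.36) were not called. Endothelial cells, muscle and Schwann cells also express the member genes. Of 7 endothelial markers 1 was above background and limma called 0 (0 also at an unadjusted p under 0.05), with a summed intensity of 496 to 510 in Tmem161a-KO cells and 480 to 536 in WT cells. Of 7 skeletal muscle and 4 measured Schwann cell markers limma likewise called 0, and 0 had an unadjusted p under 0.05. The epithelial, adipocyte, macrophage and chondrocyte lists had 1 lower gene each (Krt18, Lep, Cd14 and Col2a1), Lep being below background. At an unadjusted p under 0.05 they had 3, 1, 2 and 4. The macrophage sum was 571 to 590 in Tmem161a-KO cells and 671 to 755 in WT cells, but overlapped without Cd14. Full epithelial and chondrocyte sums overlapped. Without Krt14 the epithelial sum was 572 to 658 in Tmem161a-KO cells and 680 to 807 in WT cells. Without Sox9 the chondrocyte sum was 1136 to 1287 in Tmem161a-KO cells and 1565 to 1972 in WT cells. Of 6 pericyte and smooth muscle markers 1 was called, the proteoglycan gene Cspg4 (log2 difference 2.01), and their summed intensity was 243521 to 267230 in Tmem161a-KO cells and 203171 to 253957 in WT cells. Nearly all of that sum was Acta2, and without it the other 5 summed to 2113 to 2584 in Tmem161a-KO cells and 892 to 1028 in WT cells. The rise in this smaller sum was that of Cspg4, at 1831 ± 250 in Tmem161a-KO cells and 455 ± 67.3 in WT cells. Myh11, the next brightest, had 231 ± 9.29 in Tmem161a-KO cells and 264 ± 16.0 in WT cells. The part of other cell types in the results was not tested.

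**Figure D1:**
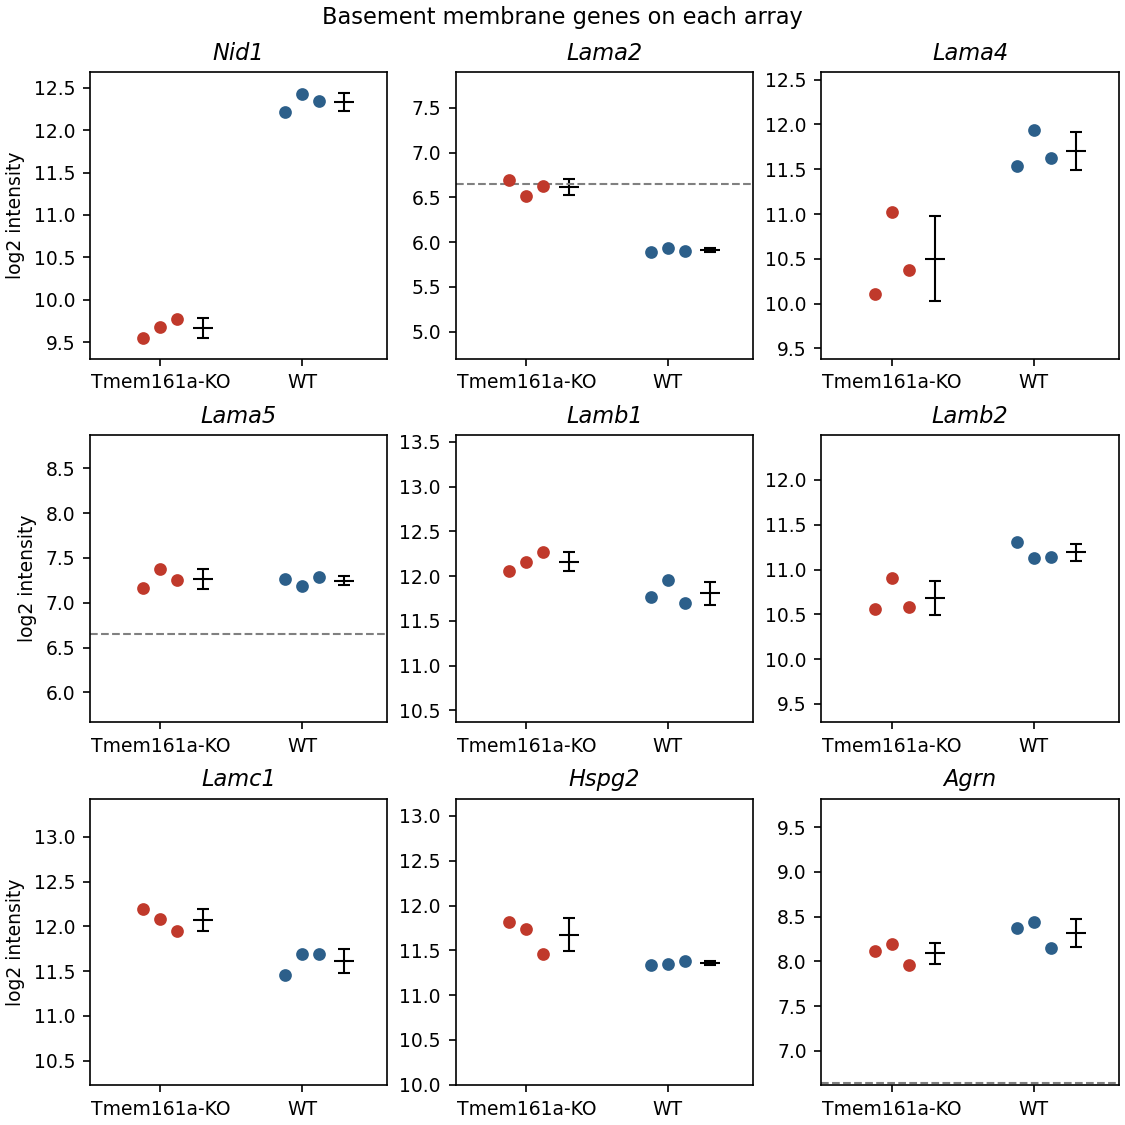
Log2 intensity of the 9 genes on each array, with Tmem161a-KO arrays in red and WT arrays in blue, and bars for the mean and SD of each group (n = 3). The panels span the same number of log2 units, except that of Nid1, which spans slightly more. The dashed line is the background of 6.65 where it falls within the panel. Nid1 and Lama4 were lower on all Tmem161a-KO arrays, and Lama2 lay around the background in Tmem161a-KO cells and below it in WT cells.

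Nid1, which encodes the link between the laminin gamma1 chain and collagen IV, showed the largest difference of the 9. Its intensity was 748, 817 and 876 on Tmem161a-KO arrays 1 to 3 and 4756, 5525 and 5188 on WT arrays 1 to 3. All Tmem161a-KO arrays lay far below all WT arrays. The means were 814 ± 63.8 in Tmem161a-KO cells and 5156 ± 385 in WT cells (SD, n = 3 each), a log2 difference of -2.66 (SE 0.12), or 6.34-fold higher in WT cells. It was the 11th largest of the 817 lower genes. The arrays of a group differed little, the SD within groups being 0.11 on the log2 scale, while the median over all rows was 0.15. Nid2, which encodes the related nidogen-2, had an intensity of 2961, 3042 and 3053 on Tmem161a-KO arrays and 2788, 2614 and 2300 on WT arrays. Its groups did not overlap, but the log2 difference of 0.24 (SE 0.12) did not pass (limma adjusted p = 0.219). Nid2 lies on chromosome 14, on which 227 of 688 rows were higher and 15 lower in Tmem161a-KO cells. None of the 9 members lies on chromosome 14 or 17. The ratio of Nid1 to Nid2 within an array, on the log2 scale and set to 0 at the WT mean, was -2.99, -2.90 and -2.81 on Tmem161a-KO arrays and -0.24, 0.07 and 0.17 on WT arrays. The ratio shows unequal change of the 2 genes and not that either was constant.

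Among the alpha chains, which carry the main contacts with receptors, the genes did not share a direction. Lama4, the alpha chain of vessel, muscle and fat basement membranes, had an intensity of 1099, 2087 and 1330 on Tmem161a-KO arrays and 2973, 3928 and 3158 on WT arrays. All Tmem161a-KO arrays were below all WT arrays, although Tmem161a-KO array 2 stood well above the other two. The means were 1505 ± 517 in Tmem161a-KO cells and 3353 ± 507 in WT cells (SD, n = 3 each), a log2 difference of -1.20 (SE 0.19), or 2.30-fold higher in WT cells. The SD within groups was 0.37 on the log2 scale, larger than that of 99.2% of all rows. The difference was -1.46 without Tmem161a-KO array 2 and -0.999 without Tmem161a-KO array 1.

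Lama2, the alpha chain of muscle and Schwann cell basement membranes that is mutated in a congenital muscular dystrophy, had an intensity of 104, 91.6 and 99.2 on Tmem161a-KO arrays and 59.4, 61.3 and 59.9 on WT arrays. The Tmem161a-KO arrays were all above the WT arrays, but both group means (98.2 ± 6.12 in Tmem161a-KO cells and 60.2 ± 0.947 in WT cells) were below the background of 100.1, and no fold is given. The log2 difference was 0.70 (SE 0.11). The muscle markers summed to 679 to 730 in Tmem161a-KO cells and 699 to 827 in WT cells, and 2 of 7 were above background, Myog and Acta1, while Myod1 and Des were below it in both groups. Of the 4 measured Schwann cell markers 2 were above background, Egr2 and Mbp, while Sox10 was below it in both groups. Their sum was 7412 to 10659 in Tmem161a-KO cells and 9014 to 18968 in WT cells, nearly all of it Egr2, and without Egr2 it was 304 to 352 in Tmem161a-KO cells and 348 to 417 in WT cells. The part of these cell types in the level of Lama2 was not tested.

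Lama5, the alpha chain of many mature epithelial and vessel basement membranes, did not separate the groups. Its intensity was 143, 167 and 153 on Tmem161a-KO arrays and 154, 146 and 156 on WT arrays, which overlapped, with a log2 difference of 0.02 (SE 0.11). Of the alpha chain genes outside the members, Lama1, which encodes the alpha chain of the early embryo, had 1241, 1404 and 1613 on Tmem161a-KO arrays and 951, 851 and 972 on WT arrays. Lama1 was significantly higher in Tmem161a-KO cells (log2 difference 0.61, SE 0.12, limma adjusted p = 0.00481). It lies on chromosome 17, on which 12 of 964 rows were higher and 82 lower. The log2 difference between Lama4 and Lama1 within an array, set to 0 at the WT mean, was -2.02, -1.28 and -2.13 on Tmem161a-KO arrays and -0.21, 0.36 and -0.15 on WT arrays, so that the 2 alpha chain genes moved apart on every Tmem161a-KO array. Lama3, the alpha chain of laminin in skin, had a mean of 90.3 ± 5.86 in Tmem161a-KO cells, below background, and 114 ± 7.13 in WT cells, and did not pass (log2 difference -0.33, SE 0.11, limma adjusted p = 0.0812).

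The beta chain genes lay on opposite sides of 0. Lamb2, the beta chain of neuromuscular junctions and the kidney glomerulus, had an intensity of 1511, 1912 and 1533 on Tmem161a-KO arrays and 2527, 2244 and 2251 on WT arrays. All Tmem161a-KO arrays were below all WT arrays (1652 ± 225 in Tmem161a-KO cells and 2341 ± 162 in WT cells, SD, n = 3 each), a log2 difference of -0.51 (SE 0.12), or 1.42-fold higher in WT cells. Lamb1, the widespread beta chain, had an intensity of 4249, 4587 and 4932 on Tmem161a-KO arrays and 3485, 3970 and 3324 on WT arrays. Here all Tmem161a-KO arrays were above all WT arrays (4589 ± 342 in Tmem161a-KO cells and 3593 ± 337 in WT cells), with a log2 difference of 0.35 (SE 0.12). The log2 ratio of Lamb2 to Lamb1 within an array, set to 0 at the WT mean, was -0.87, -0.65 and -1.07 on Tmem161a-KO arrays and 0.15, -0.21 and 0.05 on WT arrays, and the groups did not overlap. Lamb3, the beta chain of skin laminin, was below background in both groups (49.9 ± 2.29 in Tmem161a-KO cells and 35.5 ± 2.08 in WT cells), although its log2 difference of 0.49 passed (limma adjusted p = 0.010). It no longer passed without WT array 1 (0.46, limma adjusted p = 0.051).

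Lamc1, the gamma chain that most laminins share and that nidogen binds, had an intensity of 4687, 4336 and 3943 on Tmem161a-KO arrays and 2805, 3304 and 3307 on WT arrays. All Tmem161a-KO arrays were above all WT arrays, the means being 4322 ± 372 in Tmem161a-KO cells and 3139 ± 289 in WT cells (SD, n = 3 each), a log2 difference of 0.46 (SE 0.12), or 1.38-fold higher in Tmem161a-KO cells. The log2 ratio of Nid1 to Lamc1 within an array, set to 0 at the WT mean, was -3.36, -3.12 and -2.89 on Tmem161a-KO arrays and 0.04, 0.02 and -0.07 on WT arrays. By their intensities, Nid1 lay below and Lamc1 above all WT arrays on every Tmem161a-KO array, while the ratio alone shows only unequal change. Lamc3, the gamma chain gene known from the retina and brain surface, had overlapping groups (log2 difference -0.16, SE 0.16, limma adjusted p = 0.596).

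The proteoglycan genes showed small differences. Hspg2, which encodes perlecan, had an intensity of 3601, 3413 and 2824 on Tmem161a-KO arrays and 2592, 2601 and 2672 on WT arrays. The groups did not overlap, but Tmem161a-KO array 3 lay close to WT array 3, and the log2 difference was 0.32 (SE 0.12). Agrn, which encodes agrin, the nerve-derived organizer of acetylcholine receptors, had an intensity of 277, 294 and 250 on Tmem161a-KO arrays and 331, 347 and 283 on WT arrays. Tmem161a-KO array 2 was above WT array 3, so that the groups overlapped, with a log2 difference of -0.23 (SE 0.12). Perlecan and agrin both carry heparan sulfate chains. The differences of their genes had opposite signs, but neither passed the threshold of the fit over all genes.

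**Figure D2:**
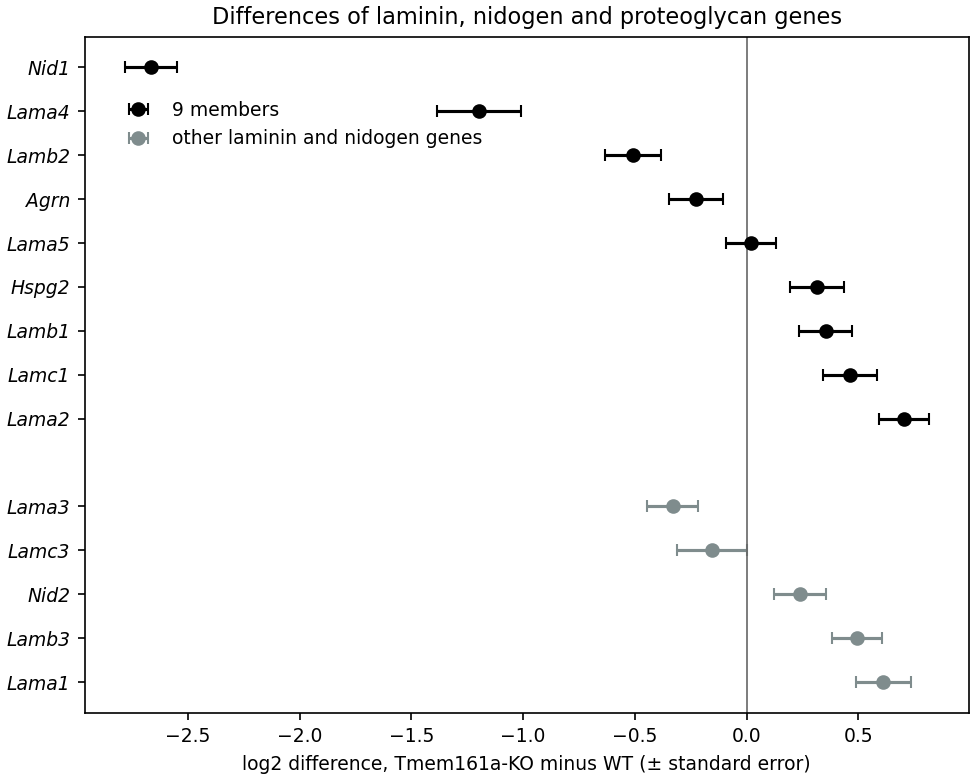
Log2 difference, Tmem161a-KO minus WT, of the 9 genes (black) and of the other measured laminin and nidogen genes (gray), with bars for the standard error of the fit over all genes. Nid1 at -2.66 and Lama4 at -1.20 stand apart from the rest, which lie between -0.51 and 0.70.

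Of the 9 members, 2 were past the threshold of the fit over all genes as higher, Lama2 and Lamc1, while 5.73% of all genes were higher. As lower 3 were past it, Nid1, Lama4 and Lamb2, while 4.17% of all genes were lower. In either direction this is 5 of 9 members beside 9.91% of all genes. The groups did not overlap for 4 members that were higher and 3 that were lower in Tmem161a-KO cells, while the groups of 28.9% of all genes did not overlap. The members were chosen by this contrast, so nothing is read from these counts. The median log2 difference was 0.02 over the members and -0.01 over all rows. When all rows were split into 4 equal groups by brightness, the brightest group had a median difference of 0.09 and the second dimmest one of -0.10, and Lamb1, Lamc1, Hspg2, Nid1, Lama4 and Lamb2 all lay in the brightest group. The part of brightness in the members' differences was not tested.

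The members were called anew under 17 alternatives, 16 of which kept the row of Lama2. Their differences could change only with another scaling, with array weights or with an array left out. Nid1 lay between -2.74 and -2.60 and was called lower in all 17. Lama4 lay between -1.46 and -0.999 and was called lower in 16, the exception being the methods' per-gene test with adjustment. Lama2 lay between 0.66 and 0.78 and was called higher in 15, the exception being a fold change of at least 2. The calls of the smaller differences changed with single arrays left out, while the differences moved little. With 1 array left out Lamb2 lay between -0.62 and -0.45 and Lamc1 between 0.38 and 0.53. Such a fit has fewer arrays, and each called fewer genes over all rows than the fit to all arrays. Lamb2 was called lower in 11 of the 17, and not without Tmem161a-KO array 1 (-0.45), Tmem161a-KO array 3 (-0.46) or WT array 1 (-0.45). Lamc1 was called higher in 10 of the 17, and not without Tmem161a-KO array 1 (0.40), Tmem161a-KO array 2 (0.46) or WT array 1 (0.38), nor after quantile normalization (0.38). Neither Lamb2 nor Lamc1 was called at an adjusted p under 0.01, at a fold change of at least 2 or in the methods' per-gene test with adjustment. Lamb1 was called higher in 3 alternatives, among them centering on the median (0.42). Hspg2 was called in 1, the same test without adjustment, and Agrn and Lama5 in 0.

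**Figure D3:**
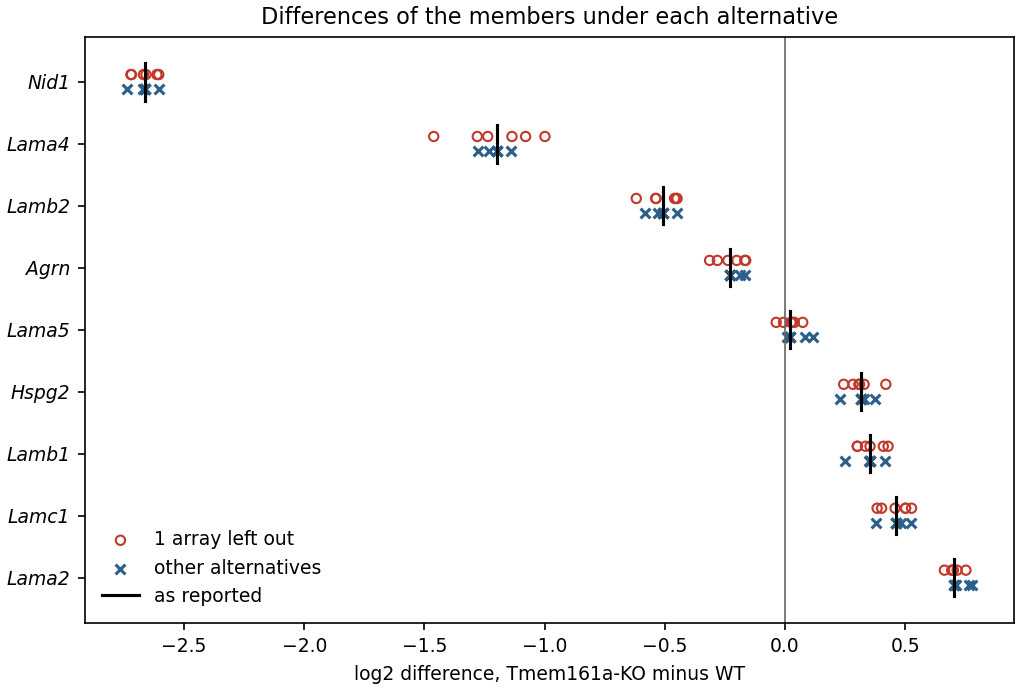
Log2 difference, Tmem161a-KO minus WT, of the 9 genes under each alternative, with circles for 1 array left out, crosses for the other alternatives and a vertical bar for the value reported in the text. Lama4 had the widest range, -1.46 to -0.999, and Lama5 was the only gene with values on both sides of 0, from -0.04 to 0.11.

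The genes next to each called member were compared with it. Along chromosome 13, the 10 rows nearest to Nid1, 5 on each side, had log2 differences from -0.14 to 0.18 and limma called 0 of them (0 also at an unadjusted p under 0.05). The closest on each side were Gpr137b (0.08) and Lyst (-0.03). Around Lamb2 the range was -0.23 to 0.27 and around Lamc1 it was -0.31 to 0.40, with 0 calls by limma each (1 row near Lamb2 and 4 near Lamc1 had an unadjusted p under 0.05), and 7 of the 10 rows near Lamc1 were above 0, as Lamc1 was. Near Lama4 2 of 10 rows were significantly higher, Amd2 (0.41, limma adjusted p = 0.0441) and Fyn (0.50, limma adjusted p = 0.0216), on the side of 0 opposite to Lama4, and 3 had an unadjusted p under 0.05. Of all 19571 rows 9228 were above 0, as were 6 of 10 near Nid1 and 4 of 10 near each of Lama4 and Lamb2. Near Lama2 9 of 10 rows were above 0, as Lama2 was, with a median of 0.17. The adjacent gene Ptprk was significantly higher (0.51, limma adjusted p = 0.0312), and 3 rows near Lama2, Ptprk, L3mbtl3 (0.43) and Themis (0.34), had an unadjusted p under 0.05.

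Other genes had a pattern over the 6 arrays close to that of Nid1. Likeness was measured as the root mean square difference of log2 values after centering each gene on its mean. The closest was Tnfrsf9, a TNF receptor family gene, at 0.152, with an intensity of 146 ± 26.1 in Tmem161a-KO cells and 813 ± 75.02 in WT cells. It was followed by Chst1, a keratan sulfate sulfotransferase gene (0.227), Xdh, which encodes xanthine dehydrogenase and lies on chromosome 17 (0.231), Trp63, which encodes the transcription factor p63 (0.238), and Rassf2 (0.249). Their log2 differences lay between -2.52 for Xdh and -2.38 for Chst1, so that likeness here meant a difference of nearly the size of that of Nid1. None of the other 8 members was among these genes.

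Genes that build, bind, modify or cut basement membranes were examined in 9 lists of 115 genes, of which 99 were measured. Of these, 13 were higher, 8 were lower and 78 did not pass, beside 5.73% higher and 4.17% lower over all genes. The median log2 difference was -0.06 against -0.01 over all rows. Of the 99 genes 82 were above background, and 47 had an unadjusted limma p under 0.05, a share not counted over all genes. Collagen IV, to which nidogen-1 binds, gave no call for its main chains. Col4a1 had an intensity of 1049, 931 and 853 on Tmem161a-KO arrays and 1064, 1436 and 1264 on WT arrays (log2 difference -0.40, SE 0.13, limma adjusted p = 0.0691). Its groups did not overlap, yet Tmem161a-KO array 1 lay just below WT array 1, and it passed as lower after quantile normalization (-0.48, limma adjusted p = 0.033). Col4a2 had overlapping groups (-0.12, SE 0.13, limma adjusted p = 0.640), and so did Col18a1, the source of endostatin (0.15, SE 0.13, limma adjusted p = 0.529). Of the 8 measured basement membrane collagens 1 was lower, Col15a1, at 194 ± 12.9 in Tmem161a-KO cells and 295 ± 58.0 in WT cells (-0.59, SE 0.14, limma adjusted p = 0.0119), and it no longer passed without Tmem161a-KO array 3 (-0.55) or WT array 1 (-0.43). Of 18 other basement membrane proteins 2 were lower and 0 higher. Tinagl1, a matricellular protein gene, had an intensity of 8984 ± 295 in Tmem161a-KO cells and 17778 ± 650 in WT cells (-0.98, SE 0.11, limma adjusted p = 2.65e-05). Ntn1, which encodes the laminin-related guidance protein netrin-1, had 4628 ± 672 in Tmem161a-KO cells and 6959 ± 374 in WT cells (-0.60, SE 0.13, limma adjusted p = 0.00657). Pxdn, which encodes the enzyme that crosslinks collagen IV, was higher, with 9352, 9082 and 8578 on Tmem161a-KO arrays and 4943, 4749 and 5780 on WT arrays (0.81, SE 0.12, limma adjusted p = 0.000298).

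Receptor genes moved in both directions. Mcam, which encodes a receptor for laminins with the alpha4 chain, had an intensity of 1023, 595 and 941 on Tmem161a-KO arrays and 126, 142 and 188 on WT arrays. Its mean was 853 ± 227 in Tmem161a-KO cells and 152 ± 32.0 in WT cells, a log2 difference of 2.47 (SE 0.19, limma adjusted p = 5.07e-07). Tmem161a-KO array 2, which was the highest of the 3 for Lama4, was the lowest for Mcam. Itga3, the integrin alpha3 chain of a laminin receptor, was lower, with 3014, 2662 and 2257 on Tmem161a-KO arrays and 4352, 4854 and 5065 on WT arrays (-0.85, SE 0.13, limma adjusted p = 0.000393). Cd151, whose tetraspanin product binds laminin-binding integrins, was lower as well (-0.40, SE 0.12, limma adjusted p = 0.0415), but passed in only 1 of the 6 fits with an array left out, that without WT array 2. It did not pass after centering on the median (-0.34). Itga6 (0.41, SE 0.14, limma adjusted p = 0.0768) and Itgb1 (0.31, SE 0.12, limma adjusted p = 0.112), the chains of another laminin receptor, did not pass. Itga6 passed as higher after centering on the median (0.47, limma adjusted p = 0.0393) and without Tmem161a-KO array 2 (0.52, limma adjusted p = 0.0376). Itgb1 passed as higher with an intensity trend (limma adjusted p = 0.0314). Of the 15 measured receptor genes 1 was higher, 2 were lower and 12 did not pass, with a median of -0.14. An unadjusted limma p under 0.05 was found for 8 of the 15.

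Dystroglycan binds laminin alpha2, perlecan and agrin, and links them to the cytoskeleton through the dystrophin complex. Dag1, its gene, had 22615, 24323 and 24841 on Tmem161a-KO arrays and 30241, 27227 and 30282 on WT arrays. The groups did not overlap, yet the difference did not pass (-0.29, SE 0.11, limma adjusted p = 0.122). With an intensity trend Dag1 passed as lower (limma adjusted p = 0.0463). Of 12 measured genes of the complex 3 were lower and 0 higher, and 6 had an unadjusted limma p under 0.05. After centering on the median Sntb1, a syntrophin gene, was called higher beside the 3 (0.51, limma adjusted p = 0.0444). Dtna, which encodes alpha-dystrobrevin, was lower at 579 ± 55.4 in Tmem161a-KO cells and 1514 ± 209 in WT cells (-1.38, SE 0.13, limma adjusted p = 4.96e-06). Sgcd, which encodes delta-sarcoglycan (-0.79, SE 0.18, limma adjusted p = 0.0121), and Dtnb, which encodes beta-dystrobrevin (-0.47, SE 0.11, limma adjusted p = 0.0143), were lower too. Both no longer passed without Tmem161a-KO array 1 (-0.64 and -0.45) or without WT array 2 (-0.57 and -0.41), which left Dtna as the only lower gene of the list. Of 7 measured genes for the sugar chain of dystroglycan that laminin binds, 0 passed in limma, and 1 had an unadjusted p under 0.05.

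Among the enzymes of heparan sulfate, the chains that perlecan and agrin carry, 5 of 18 measured genes were higher and 0 lower. The median was 0.29, and 0.21 after quantile normalization, and 9 of the 18 had an unadjusted limma p under 0.05. Extl3, which encodes an enzyme that starts the chain, had an intensity of 5035, 3866 and 4729 on Tmem161a-KO arrays and 2049, 1813 and 1787 on WT arrays (1.26, SE 0.13, limma adjusted p = 9.51e-06), and lies on chromosome 14. Hs6st1, a sulfotransferase gene, had 3320 ± 367 in Tmem161a-KO cells and 2060 ± 163 in WT cells (0.69, SE 0.12, limma adjusted p = 0.00159). Both passed with each array left out. The other calls were the sulfotransferase genes Hs3st3a1 (0.47, limma adjusted p = 0.0282) and Hs6st2 (0.42, limma adjusted p = 0.0351) and the chain elongation gene Ext1 (0.46, limma adjusted p = 0.0214). Hs6st2 no longer passed after quantile normalization (0.35). The number of higher genes of the list was 2 without Tmem161a-KO array 1, Tmem161a-KO array 3 or WT array 1, 3 without Tmem161a-KO array 2 or WT array 2, and 5 without WT array 3.

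Of the 14 genes for proteases that cut basement membrane proteins, 4 were higher and 0 lower, while the median of the list was -0.08. Differences of 6 of the 14 were above 0, and 11 had an unadjusted limma p under 0.05. With the replicate number as a block 5 were higher and 1 lower, the added calls being Adamts1 (0.50) and Prss12 (-0.38). Prss12 also passed as lower among rows above background. After quantile normalization 4 were higher and 2 lower, namely Ctsl, a cathepsin gene (-0.42, limma adjusted p = 0.0373), and Plau, the urokinase gene (-0.48, limma adjusted p = 0.0439). With an intensity trend 4 were higher and 2 lower, Ctsl and Mmp2. Bmp1, which encodes a proteinase that trims procollagens, laminin chains and perlecan, had an intensity of 8081, 6534 and 6852 on Tmem161a-KO arrays and 1954, 1614 and 1961 on WT arrays (1.96, SE 0.13, limma adjusted p = 1.03e-07). Htra1, a secreted serine protease gene, had 7852, 10489 and 9258 on Tmem161a-KO arrays and 3421, 4687 and 3928 on WT arrays (1.20, SE 0.14, limma adjusted p = 4.71e-05). For both genes all Tmem161a-KO arrays lay above all WT arrays. Mmp14, a membrane-bound metalloproteinase gene (0.69, SE 0.14, limma adjusted p = 0.00364), and Plat, the tissue plasminogen activator gene (0.65, SE 0.16, limma adjusted p = 0.0173), were higher as well. Plat no longer passed without Tmem161a-KO array 1 (0.48), Tmem161a-KO array 2 (0.62), WT array 2 (0.65) or WT array 3 (0.58). Bmp1 and Mmp14 lie on chromosome 14, while Htra1 and Plat do not.

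**Figure D4:**
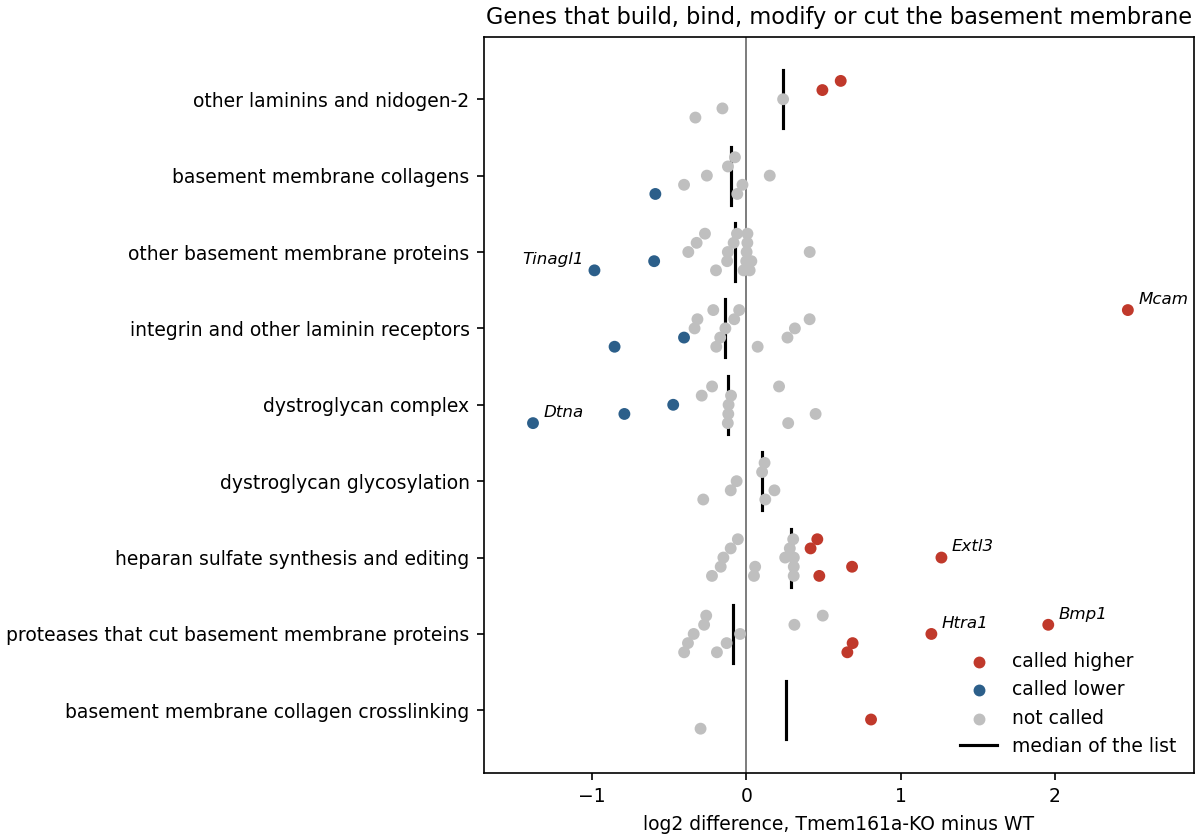
Log2 difference, Tmem161a-KO minus WT, of the 99 measured genes in 9 lists, a point per gene, with red for genes called higher, blue for genes called lower and gray for genes not called at an adjusted p under 0.05, and a black bar for the median of each list. Genes with a difference of at least 0.9 in size are named, and the calls of the heparan sulfate and protease lists lie to the right of 0 and those of the dystroglycan complex to the left in this fit. After quantile normalization 2 protease genes, Ctsl and Plau, were also called lower, and after centering on the median Sntb1 of the dystroglycan complex was called higher.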

How the data were processed

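RNA from Tmem161a-KO and WT MC3T3-e1 cells (n = 3 each) was hybridized to Clariom S mouse arrays. The deposited unit is intensity, on a linear scale and without pooling, which the authors normalized with GeneSpring and analyzed in Transcriptome Analysis Console 4.0.2.15. For background correction, probe summarization and annotation the sources used here give no details, and array data carry no read depth.

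Of 22205 rows, 2634 (11.9%) had no symbol and were left out. Log2 intensities (no pseudocount) were fitted by group in limma 3.58.1 (R 4.3.3, functions lmFit and eBayes, Benjamini-Hochberg adjustment over 19571 rows, threshold 0.05), and the fit was tested on simulated data. An exact permutation test of 3 against 3 arrays cannot go below 0.1. The members and gene lists were chosen with earlier results of these data known. The text names all members, the other laminin and nidogen genes, up to 6 called genes of each list with the largest differences, genes fixed for their known role, the 5 genes most like Nid1 and nearby rows. Of the lists, 16 genes were not analysed here, Loxl2 among them. The order of genes along chromosomes is from a RefSeq table.

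The alternatives were quantile normalization, centering on the median, an intensity trend, array weights, the methods' t-test, a filter on dim rows, all rows, the replicate number as a block, stricter thresholds, the mean of a gene's rows, and each array left out.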

Additional observations from a re-analysis of the deposited data

How the results depend on the processing

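No member past the threshold changed sign with another scaling, with array weights or with an array left out. In the other alternatives the difference is the same as reported, so only the call could change. Members higher were 1 in place of 2 after quantile normalization, among rows above background, at an adjusted p under 0.01 and in the methods' t-test with adjustment, 4 in that test without adjustment and 0 at a fold change of at least 2. They were 3 after centering on the median and with an intensity trend. Members lower were 1 in place of 3 in the adjusted t-test, and 2 at an adjusted p under 0.01 and at a fold change of at least 2. All genes higher and lower, 1122 and 817, were 114 and 76 in the adjusted t-test, 2038 and 1878 without adjustment, 581 and 382 at an adjusted p under 0.01, and 154 and 126 at a fold change of at least 2. Genes of the 9 lists higher, 13, were 1 in the adjusted t-test, 9 at an adjusted p under 0.01 and 4 at a fold change of at least 2. They were 18 after centering on the median and in the unadjusted t-test, and 17 with an intensity trend. Those lower, 8, were 1 in the adjusted t-test, 14 without adjustment, 4 at an adjusted p under 0.01 and 1 at a fold change of at least 2. They were 11 after quantile normalization and with an intensity trend. With 1 array left out, 729 to 965 genes were higher and 497 to 703 lower, with 1 to 2 members higher and 2 to 3 lower, and 9 to 13 genes of the lists higher and 5 to 8 lower. Of the 21 calls in the lists, 12 held in each such fit. The labels give same-numbered arrays no link beyond the number. Their deviations correlated at 0.07, 0.09 and 0.02, while all pairs between the groups lay between -0.11 and 0.09. Of the 6 arrays 5 correlated best with their own number, and whether these arrays were handled together was not tested. With the replicate number as a block, 1198 genes were higher and 853 lower, the members gave the same 2 and 3 calls, and 15 and 9 genes of the lists were called. The mean of a gene's rows changed nothing, as each gene had 1 row. Lama2 was dropped by the filter on dim rows. Signal near background limits Lama2, Lama5 and Lamb3, since a dim row understates a difference in RNA, and the number of arrays limits the precision of all values.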
